A study of Rattus norvegicus with 17 samples.

Results

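The immediate early transcription factor genes Fos, Fosb, Jun, Junb, Egr1, Atf3, Nr4a1, Nr4a2 and Nr4a3 were followed together with the feedback phosphatase gene Dusp1 across 17 microarrays of rat tumour tissue. Each gene was taken from the probe set that the array's annotation assigns to its symbol alone. Of the 10 genes, 9 had such a probe set, 1 each, out of 14506 genes measured, and Fosb was not analysed here. Every value below is a log2 expression value on the scale the submitters deposited, so a difference of 1 is a doubling, and levels of different genes are not set against each other.

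Immediate early genes are transcribed within minutes of a stimulus by transcription factors that are already present in the cell, and their transcripts are short-lived. FOS and JUN family proteins pair to form the dimeric factor AP-1, EGR1 is a zinc finger factor induced through serum response factor, ATF3 is a stress-induced factor of the ATF/CREB family, and NR4A1, NR4A2 and NR4A3 are orphan nuclear receptors. DUSP1 removes activating phosphates from mitogen-activated protein kinases, the enzymes that switch many of these genes on. In the adrenal gland, NR4A receptors and EGR1 are known as regulators of genes for steroid and catecholamine synthesis.

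The animals were rats aged 8 months on a Sprague-Dawley white eye/Wistar-Kyoto background that carry a mutant p27Kip1 gene, which encodes a cyclin-dependent kinase inhibitor, so the controls carry the mutation as well. The sample labels give the genotype as homozygous, and the design text of the series gives it as heterozygous. There were 4 libraries (3 female, 1 male) at 30 mg/kg of NVP-BEZ235, an inhibitor of PI3K and mTOR kinases, 6 libraries (4 female, 2 male) at 20 mg/kg of NVP-BEZ235, and 7 control libraries (5 female, 2 male) given PEG at 20 mg/kg. The length of treatment is not given, and nothing says that the libraries come from separate animals, so each p-value reflects only how far these libraries vary, which may be partly technical.

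The title numbers of the libraries run from 1 to 4 at 30 mg/kg and from 5 to 10 at 20 mg/kg, while those of the controls run from 1 to 7. The array medians lay between 4.95 and 5.11 and no pair of arrays was identical. The tissue is labelled pituitary adenoma, whereas the title of the series names pheochromocytoma, which arises from chromaffin cells of the adrenal medulla. Marker genes of chromaffin cells averaged 10.28 to 11.47 per library and those of the adrenal cortex 9.70 to 11.10, against 4.06 to 5.06 for the pituitary hormone genes, a list mean near the array medians. Single hormone genes were higher in some libraries, with the prolactin gene Prl at 5.47 to 6.99 at 30 mg/kg, 4.02 to 5.0 at 20 mg/kg and 4.75 to 9.16 in controls, and Pomc at 7.86 in replicate 3 at 30 mg/kg. In such bulk tissue fewer cells of a type and less RNA per cell cannot be told apart.

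The 5 members that passed the test at 30 mg/kg, described in the next paragraphs, are shown first through their promoters, because the textbook account links these genes through promoter elements for common upstream factors. RefSeq's promoter table for the GRCr8 assembly, with 250 bases before and 50 bases from each listed start, held all 5 of them and Fosb, so 6 of the 10 genes matched. Capitals mark the motifs searched on both strands: the cAMP response element TGACGTCA with its half-site TGACG, which may overlap it, the CArG box of serum response factor, the AP-1 site TGANTCA, the EGR site GCGNGGGCG and the NR4A site AAAGGTCA.
Junb, chr19:40080876-40081175, plus strand: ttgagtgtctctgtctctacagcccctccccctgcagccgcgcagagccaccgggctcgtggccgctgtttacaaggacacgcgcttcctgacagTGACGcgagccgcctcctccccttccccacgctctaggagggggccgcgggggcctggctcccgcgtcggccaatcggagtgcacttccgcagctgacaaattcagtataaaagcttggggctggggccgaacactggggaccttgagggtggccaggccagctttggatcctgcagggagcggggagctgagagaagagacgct
Egr1, chr18:26736828-26737127, plus strand: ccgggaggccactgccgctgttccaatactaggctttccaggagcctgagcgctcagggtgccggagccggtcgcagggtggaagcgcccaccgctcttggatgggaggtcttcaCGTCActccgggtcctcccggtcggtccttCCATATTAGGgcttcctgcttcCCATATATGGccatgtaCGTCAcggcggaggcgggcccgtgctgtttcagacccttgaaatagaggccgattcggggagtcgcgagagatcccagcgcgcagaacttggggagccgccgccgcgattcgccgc
Nr4a1, chr7:134259888-134260187, plus strand: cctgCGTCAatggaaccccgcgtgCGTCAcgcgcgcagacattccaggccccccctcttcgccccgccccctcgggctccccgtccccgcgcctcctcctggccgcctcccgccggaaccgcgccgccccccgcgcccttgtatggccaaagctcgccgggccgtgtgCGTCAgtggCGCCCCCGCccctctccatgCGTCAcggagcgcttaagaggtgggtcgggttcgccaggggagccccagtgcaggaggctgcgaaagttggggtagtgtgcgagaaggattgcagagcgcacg
Nr4a2, chr3:62104838-62105137, minus strand: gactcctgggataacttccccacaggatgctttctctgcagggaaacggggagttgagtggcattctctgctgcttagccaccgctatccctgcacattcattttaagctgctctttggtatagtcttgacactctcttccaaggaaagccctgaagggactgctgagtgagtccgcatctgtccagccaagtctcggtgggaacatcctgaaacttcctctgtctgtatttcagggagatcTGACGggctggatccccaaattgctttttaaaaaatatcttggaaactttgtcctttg
Dusp1, chr10:17184603-17184902, plus strand: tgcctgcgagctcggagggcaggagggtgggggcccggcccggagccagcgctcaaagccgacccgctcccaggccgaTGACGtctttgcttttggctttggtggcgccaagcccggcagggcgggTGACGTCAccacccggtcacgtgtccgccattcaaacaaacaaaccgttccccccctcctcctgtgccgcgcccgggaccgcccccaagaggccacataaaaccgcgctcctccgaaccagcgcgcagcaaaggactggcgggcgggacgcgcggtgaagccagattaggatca

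Counting the listed start as 0, the Dusp1 promoter holds a full cAMP response element at -124 to -117, and 2 of its 3 half-site matches lie within it. The Egr1 promoter holds 2 CArG boxes, at -105 to -96 and at -83 to -74, and 2 half-sites. The Nr4a1 promoter holds 4 half-sites and 1 EGR site at -73 to -65, while Junb holds 1 half-site at -155 to -151 and Nr4a2 holds 1 at -8 to -4. All 5 windows hold the half-site. The window listed for Fosb, which was not analysed here, holds 0 matches to it and to the other motifs. The windows of Fosb, Nr4a1 and Nr4a2 lie wholly inside the annotated span of their genes, so their listed starts are internal ones. The windows are thus not alike, and a difference between them was not tested. The half-site is present in 21.2% of the 33469 promoters of this length. The full element was found in 1.83% of them, the CArG box in 1.64%, the EGR site in 4.98%, the AP-1 site in 7.33% and the NR4A site in 1.43%. Such a match describes letters in this window and is no evidence of binding in the tumours.

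At 30 mg/kg, 5 of the 9 measured members were higher than in controls, namely Nr4a2, Dusp1, Nr4a1, Junb and Egr1, with changes of 3.18-fold to 5.29-fold, and none was lower. Over all genes 3.66% passed in the upward direction and 8.55% in either, at an adjusted p under 0.05 (limma with sex as a term, Benjamini-Hochberg adjustment over 14506 genes). The members' median log2 difference was 1.67 with 9 of 9 above 0, against a median of 0.011 and 52% above 0 over all genes. At 20 mg/kg none of the 9 passed, where 1.18% of all genes did in either direction and 0.655% upwards, and their median difference was 0.06. That median depended on the controls used, since it was 0.59 with the set of title numbers as a term and 0.54 against the controls numbered 5 to 7 alone, and no member passed there either. The mean of the 9 members was 8.26 ± 0.80 (SD, n = 4) at 30 mg/kg, 6.96 ± 0.75 (n = 6) at 20 mg/kg and 6.86 ± 0.55 (n = 7) in controls. The groups nevertheless overlap library by library, since 1 library at 20 mg/kg and 2 controls lay at or above the lowest library at 30 mg/kg.

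**Figure D1:**
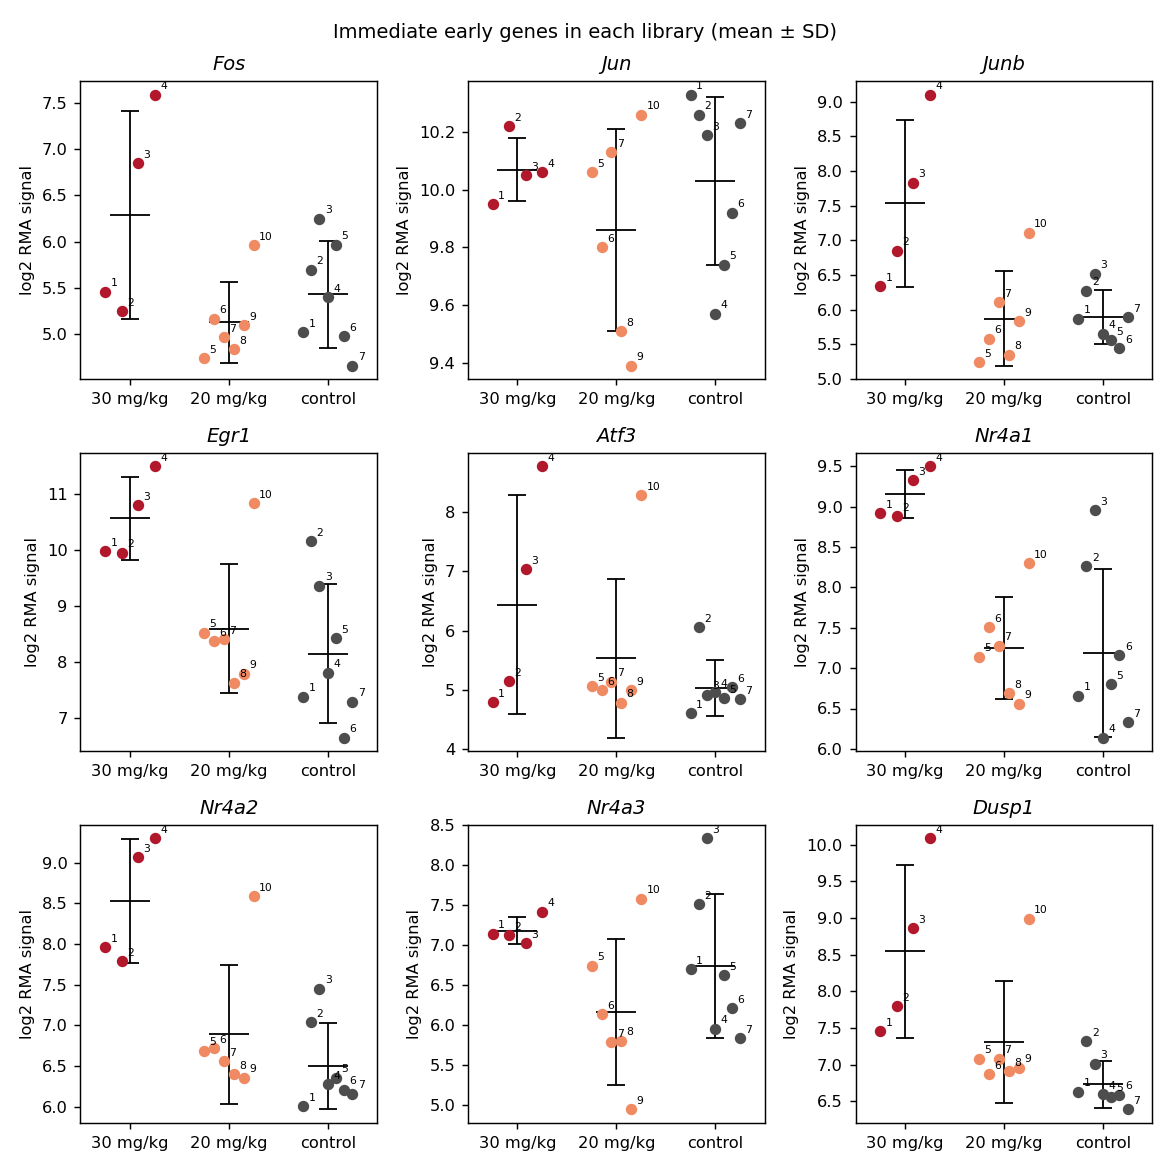
Log2 expression value of each of the 9 measured members in every library, with a panel per gene, 30 mg/kg at the left, 20 mg/kg in the middle and control at the right; points are libraries marked with their title number, and bars are the group mean ± SD. Nr4a2 and Dusp1 are the members whose 4 libraries at 30 mg/kg all lie above the 7 controls, and 1 library at 20 mg/kg stands above the other 5 for most members.

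Among the genes of AP-1, Junb, a JUN family subunit, measured 6.34, 6.85, 7.83 and 9.10 in the 4 libraries at 30 mg/kg. Its lowest, median and highest values at 20 mg/kg were 5.24, 5.71 and 7.11, against 5.44, 5.87 and 6.52 in controls. Thus 3 of the 4 libraries at 30 mg/kg were above every control, and the spread among the 4 (SD 1.21) exceeded that of 99.3% of genes. The log2 difference from control was 1.67 ± 0.38 (SE), or 3.18-fold, with a limma adjusted p of 0.013. That of 20 mg/kg was -0.05, with a 95% interval of -0.76 to 0.67 and a limma adjusted p of 0.96.

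Fos, the founding member of its family and a partner of the JUN proteins, measured 5.46, 5.25, 6.85 and 7.59 at 30 mg/kg. The lowest, median and highest values were 4.74, 5.03 and 5.96 at 20 mg/kg and 4.66, 5.40 and 6.25 in controls. Replicates 3 and 4 at 30 mg/kg were above every other library, and replicates 1 and 2 lay within the control range. The log2 difference at 30 mg/kg was 0.87 ± 0.39 (interval 0.04 to 1.70) and did not pass after adjustment (limma adjusted p 0.19). In 5 of the 17 libraries Fos was below the median of its array.

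Jun, the other founding AP-1 subunit, measured 9.95, 10.22, 10.05 and 10.06 at 30 mg/kg. It ranged between 9.39 and 10.26 with a median of 9.93 at 20 mg/kg, and between 9.57 and 10.33 with a median of 10.19 in controls. The 3 groups cover nearly the same range, and the spread at 30 mg/kg was small (SD 0.11, larger than that of 11.4% of genes). The log2 difference of 30 mg/kg from control was 0.04 with an interval of -0.34 to 0.41, and that of 20 mg/kg was -0.17 with an interval of -0.51 to 0.16 (limma adjusted p 0.93 and 0.61). Jun was above the upper quartile of its array in all 17 libraries, so its narrow spread at 30 mg/kg was not measured near background. The spread was not narrow elsewhere, with an SD of 0.35 at 20 mg/kg and 0.29 in controls, larger than that of 88.2% and 54.3% of genes.

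Egr1 measured 9.98, 9.95, 10.80 and 11.49 at 30 mg/kg. Its lowest, median and highest values were 7.63, 8.39 and 10.83 at 20 mg/kg and 6.65, 7.81 and 10.15 in controls. The controls alone spanned 3.50 on the log2 scale, and their SD of 1.24 exceeded that of 99.8% of genes. The log2 difference at 30 mg/kg was 2.40 ± 0.64, or 5.29-fold, with a limma adjusted p of 0.027. The call ended when control replicate 6 (0.054), control replicate 7 (0.056), 30 mg/kg replicate 3 (0.072) or 30 mg/kg replicate 4 (0.15) was left out, the values being limma adjusted p. The difference at 20 mg/kg was 0.44 ± 0.57 (limma adjusted p 0.73).

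Atf3 measured 4.80, 5.15, 7.04 and 8.77 at 30 mg/kg. In the 20 mg/kg group 5 libraries lay between 4.79 and 5.14 and replicate 10 reached 8.28, while controls ran between 4.61 and 6.06 with a median of 4.92. Of the 17 libraries, 3 thus stood above the upper quartile of their arrays, and 7 lay below the array median. The difference at 30 mg/kg was 1.44 ± 0.60 on the log2 scale and did not pass (limma adjusted p 0.14).

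All 3 NR4A genes were measured. Nr4a2 had 7.96, 7.79, 9.07 and 9.30 at 30 mg/kg, against a lowest, median and highest value of 6.36, 6.63 and 8.59 at 20 mg/kg and 6.01, 6.28 and 7.45 in controls. All 4 libraries at 30 mg/kg were above all 7 controls, a separation seen in that direction for 2 of the 9 members and for 1.75% of all genes. The same 2 members separated from the 4 controls numbered 1 to 4 alone, as 3.46% of genes did, and none of the 9 had all 6 libraries at 20 mg/kg above all 7 controls, as 0.917% did. The log2 difference at 30 mg/kg was 2.04 ± 0.39, or 4.12-fold (limma adjusted p 0.0049), and it passed in each of the 17 fits that left out 1 library (1.83 to 2.26). That at 20 mg/kg was 0.37 with an interval of -0.37 to 1.11 (limma adjusted p 0.63).

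Nr4a1 measured 8.92, 8.88, 9.33 and 9.50 at 30 mg/kg, the narrowest spread among the 5 members that passed (SD 0.30). The lowest, median and highest values were 6.56, 7.21 and 8.30 at 20 mg/kg and 6.14, 6.80 and 8.96 in controls. It was the only member with all 4 libraries at 30 mg/kg above all 6 at 20 mg/kg, a separation shared by 5.16% of genes, while control replicate 3 fell inside the range at 30 mg/kg. The log2 difference from control was 1.97 ± 0.45, or 3.91-fold, at 30 mg/kg (limma adjusted p 0.013) and 0.06 with an interval of -0.79 to 0.91 at 20 mg/kg (limma adjusted p 0.95).

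Nr4a3 measured 7.14, 7.12, 7.02 and 7.42 at 30 mg/kg. It ranged between 4.94 and 7.58 with a median of 5.97 at 20 mg/kg, and between 5.83 and 8.34 with a median of 6.62 in controls. No library at 30 mg/kg was above the highest control, and its 4 values sat within 0.40 of each other. The log2 difference was 0.43 with an interval of -0.54 to 1.39 at 30 mg/kg and -0.56 with an interval of -1.42 to 0.29 at 20 mg/kg, and neither passed (limma adjusted p 0.63 and 0.51).

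Dusp1 measured 7.46, 7.80, 8.86 and 10.09 at 30 mg/kg. The lowest, median and highest values were 6.87, 7.02 and 8.99 at 20 mg/kg and 6.39, 6.60 and 7.32 in controls. It is the other member with every library at 30 mg/kg above every control, and all 6 libraries at 20 mg/kg were above the 3 controls numbered 5 to 7, as was the case for 3.22% of genes. The log2 difference from control was 1.85 ± 0.40, or 3.60-fold, at 30 mg/kg (limma adjusted p 0.0092) and 0.55 ± 0.35 at 20 mg/kg (limma adjusted p 0.45).

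**Figure D2:**
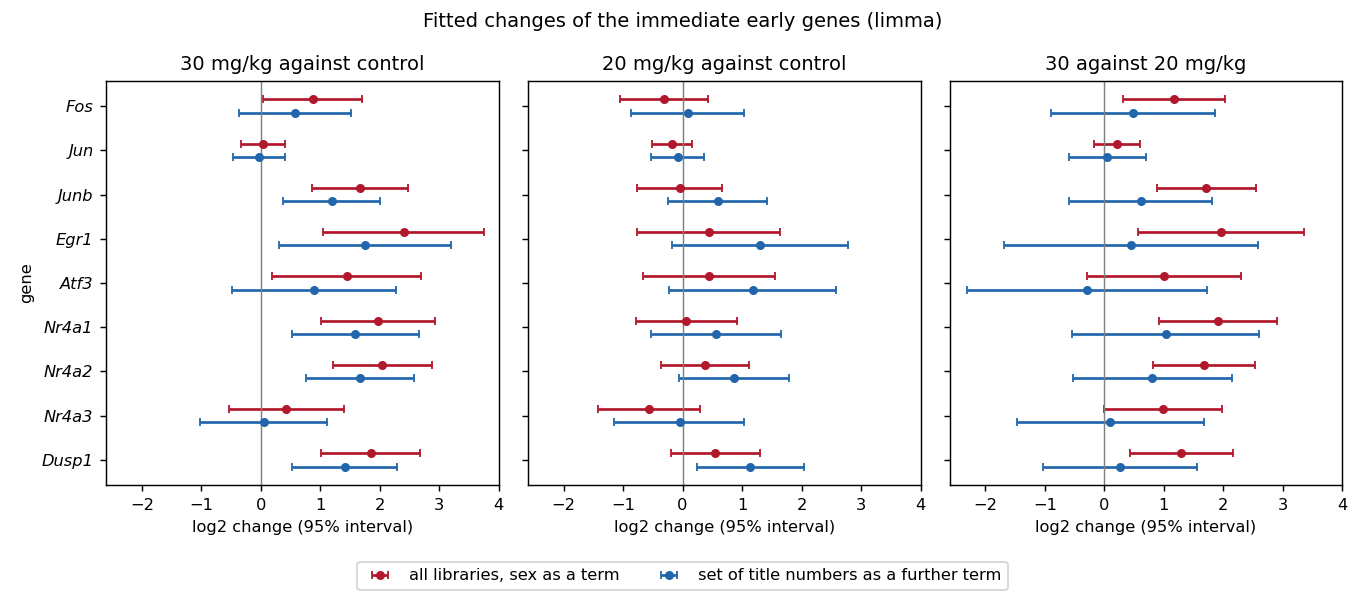
Log2 difference of each member with its 95% interval from limma, for 30 mg/kg against control, 20 mg/kg against control and 30 against 20 mg/kg; red points come from the fit with sex as a term and blue points from the fit that adds the set of title numbers. In red, the differences at 30 mg/kg lie between 0.04 for Jun and 2.40 for Egr1, and those at 20 mg/kg between -0.56 for Nr4a3 and 0.55 for Dusp1.

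Replicate 4 at 30 mg/kg, the only male of its group, had much weight in these calls. Without it Nr4a2 alone passed, where 1.36% of genes passed upwards, and Dusp1, Junb and Nr4a1 had limma adjusted p of 0.07, 0.094 and 0.074. In female rats alone Nr4a2 (log2 difference 1.65, limma adjusted p 0.03) and Dusp1 (1.22, limma adjusted p 0.043) passed at 30 mg/kg, with 3 libraries against 5, where 0.786% of genes passed upwards. A treatment effect that differs between male and female rats was fitted as a product term over both doses, and no member passed for it (limma adjusted p 0.74 to 0.94). Its estimates were 2.6 for Egr1, 2.2 for Atf3 and 1.74 for Fos on the log2 scale, larger in male rats. Over all genes 1 of 14506 passed, with 951 at an unadjusted p under 0.05. The male libraries were replicate 4 at 30 mg/kg, replicates 9 and 10 at 20 mg/kg and controls 6 and 7. Replicates 4 and 10 are among the highest libraries for most members, and both male controls are numbered from 5 on. Sex is therefore partly mixed with the title numbers and with these single libraries.

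The 2 doses were also numbered apart, so the comparisons were repeated with the set of title numbers (1 to 4 or 5 to 10) as a term. Nr4a2 then remained past the threshold at 30 mg/kg (log2 difference 1.67 ± 0.43, limma adjusted p 0.046), so that 1 of 9 members passed, where 1.50% of genes did upwards and 3.01% in either direction. At 20 mg/kg no member passed with this term, where 0.358% of genes did in either direction and 0.0207% upwards. Dusp1 (1.41, adjusted p 0.079), Nr4a1 (1.59, adjusted p 0.10), Junb (1.19, adjusted p 0.11) and Egr1 (1.75, adjusted p 0.18) kept their direction and did not pass. Among the libraries numbered 1 to 4 alone, replicate 4 at 30 mg/kg is the only male, so the sex term takes up that library and the fit compares 3 libraries with 4. There no member passed, while 0.110% of genes did in either direction and 0.0276% upwards. The log2 differences were 1.58 for Nr4a2, 1.57 for Egr1, 1.54 for Nr4a1, 1.15 for Dusp1 and 0.93 for Junb (limma adjusted p 0.26 to 0.48). Without the sex term, 4 libraries against 4, they were 1.84 for Nr4a2, 1.88 for Egr1, 1.65 for Nr4a1, 1.66 for Dusp1 and 1.45 for Junb, and none passed (limma adjusted p 0.10 to 0.27). Among those numbered 5 to 10, 6 at 20 mg/kg against 3 controls, no member passed, while 1.19% of genes did in either direction and 0.214% upwards. The log2 differences there were 1.21 for Egr1, 1.01 for Dusp1, 1.0 for Atf3 and 0.82 for Nr4a2 (limma adjusted p 0.40, 0.22, 0.44 and 0.36). With the set as a term over all libraries, those at 20 mg/kg were 1.31 for Egr1, 1.18 for Atf3, 1.14 for Dusp1 and 0.86 for Nr4a2. What the title numbers stand for is not stated.

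With both doses pooled against control, 0 of 9 members passed, where 1.48% of genes did in either direction and 0.517% upwards. The largest of these differences were 1.22 ± 0.61 for Egr1, 1.07 ± 0.39 for Dusp1 and 1.04 ± 0.43 for Nr4a2 (limma adjusted p 0.38, 0.19 and 0.27). With the set as a term, Dusp1 (1.28 ± 0.28, limma adjusted p 0.016) and Nr4a2 (1.27 ± 0.30, limma adjusted p 0.024) passed, where 4.91% of genes did in either direction and 2.16% upwards. These comparisons share their controls with those of the single doses.

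Set against 20 mg/kg directly, the 30 mg/kg libraries had higher Junb, Nr4a1, Nr4a2 and Dusp1, so 4 of 9 members passed, where 3.92% of all genes passed upwards and 12.1% in either direction. The log2 differences were 1.71 ± 0.40 for Junb, 1.91 ± 0.47 for Nr4a1, 1.68 ± 0.41 for Nr4a2 and 1.29 ± 0.41 for Dusp1 (limma adjusted p 0.014, 0.017, 0.016 and 0.048). Egr1 (1.97 ± 0.66, adjusted p 0.06) and Fos (1.18 ± 0.41, adjusted p 0.065) did not pass in this limma fit. Both passed with array weights (limma adjusted p 0.026 and 0.032), where 2366 of the 14506 genes passed in either direction. The members' median was 1.29 with 9 of 9 above 0, against 0.032 and 54.2% over all genes. No library of either dose shares a set of title numbers with the other dose, and with the set as a term none of the 14506 genes passed in limma, with 971 at an unadjusted p under 0.05. Dusp1 did not pass without the sex term (limma adjusted p 0.078). The count of members was 0 of 9 without replicate 4 at 30 mg/kg, where 0.593% of genes passed upwards. It was 2 of 9 without replicate 3 at 30 mg/kg, where 2.25% did, and 7 of 9 without replicate 10 at 20 mg/kg, where 4.26% did.

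Library by library, the members' mean was 7.56, 7.67, 8.54 and 9.26 at 30 mg/kg. In the 20 mg/kg group it was 6.43 to 6.83 in replicates 5 to 9 and 8.43 in replicate 10, and in controls it was 6.40 to 6.77 apart from 7.62 and 7.67 in replicates 2 and 3. Replicates 3 and 4 at 30 mg/kg and replicate 10 at 20 mg/kg held the 3 highest values of Junb, Egr1, Atf3, Nr4a2 and Dusp1. For Fos and Nr4a1 the third place went to control replicate 3, which also had the highest Nr4a3, and for Jun the highest library was control replicate 1. Over the 17 arrays, which share these few high libraries, Pearson's r between 2 members other than Jun was 0.45 to 0.94, and with Jun it was 0.16 to 0.65.

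**Figure D3:**
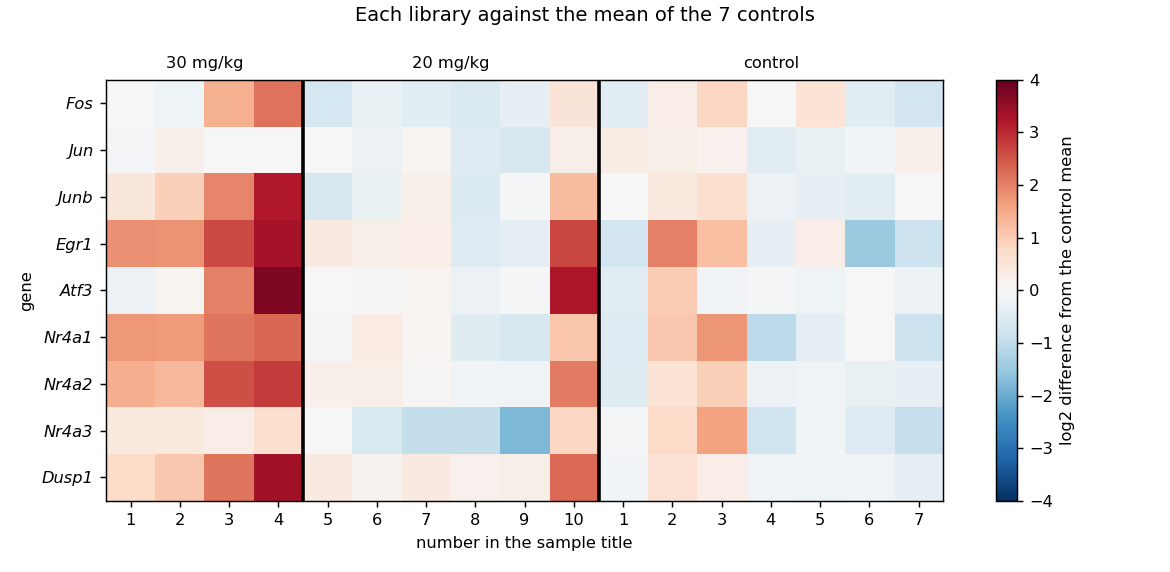
Log2 value of each member minus its control mean, with members in rows and the 17 libraries in columns grouped as 30 mg/kg, 20 mg/kg and control. Replicates 3 and 4 at 30 mg/kg and replicate 10 at 20 mg/kg are high for most members, controls 2 and 3 are high for Egr1, Nr4a1 and Nr4a3, and Jun is nearly flat.

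Other gene groups moved in the same libraries. The mean of 6 neutrophil marker genes was 6.97 and 6.53 in replicates 3 and 4 at 30 mg/kg and 5.75 in replicate 10 at 20 mg/kg, and at most 5.16 in the other 14 libraries. Over the groups it lay between 4.92 and 6.97 at 30 mg/kg, between 4.64 and 5.75 at 20 mg/kg and between 4.67 and 5.05 in controls. Of the 6 genes, 1 passed at 30 mg/kg, where 3.66% of all genes did upwards. It was Lcn2 (2.83 ± 0.59, limma adjusted p 0.0079), which encodes a secreted iron-binding protein that many tissues make. The calcium-binding protein genes S100a8 and S100a9 were at 8.22 and 8.62 in replicate 3 and 7.03 and 6.99 in replicate 4 at 30 mg/kg. Mpo, a granule enzyme gene transcribed mainly in myeloid precursors, was at or below 4.24 in every treated library. Csf3r was at 4.63 and 4.61 in replicates 3 and 4 at 30 mg/kg and 4.07 in replicate 10 at 20 mg/kg, against up to 4.64 in controls. Camp was at 4.08, 4.31 and 3.79 in those libraries, against up to 4.26 in controls. The higher list mean there thus rests on Lcn2, S100a8 and S100a9. The part of neutrophils in the members' result was not tested.

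The mean of 11 heat shock genes was 11.37 in replicate 10 at 20 mg/kg and 9.66 to 10.11 in the other 16 libraries. There 9 of the 11 had their highest value, among them the chaperone genes Dnajb1 at 10.58 and Hsph1 at 11.28. None of the 11 passed at 30 mg/kg, where their median difference was -0.15. Of 7 endothelial genes, 3 were higher at 30 mg/kg (Flt1 1.09, Cdh5 0.54 and Emcn 0.60 on the log2 scale), where 3.66% of all genes passed upwards. The endothelial list mean was 7.97 to 8.01 at 30 mg/kg, 7.36 to 7.85 at 20 mg/kg and 7.13 to 7.82 in controls. Of 4 erythroid genes, 3 were lower at 30 mg/kg, among them the globin gene Hbb (-3.51 on the log2 scale, limma adjusted p 0.00067), where 8.55% of all genes passed in either direction. The part of these groups in the members' result was not tested.

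**Figure D4:**
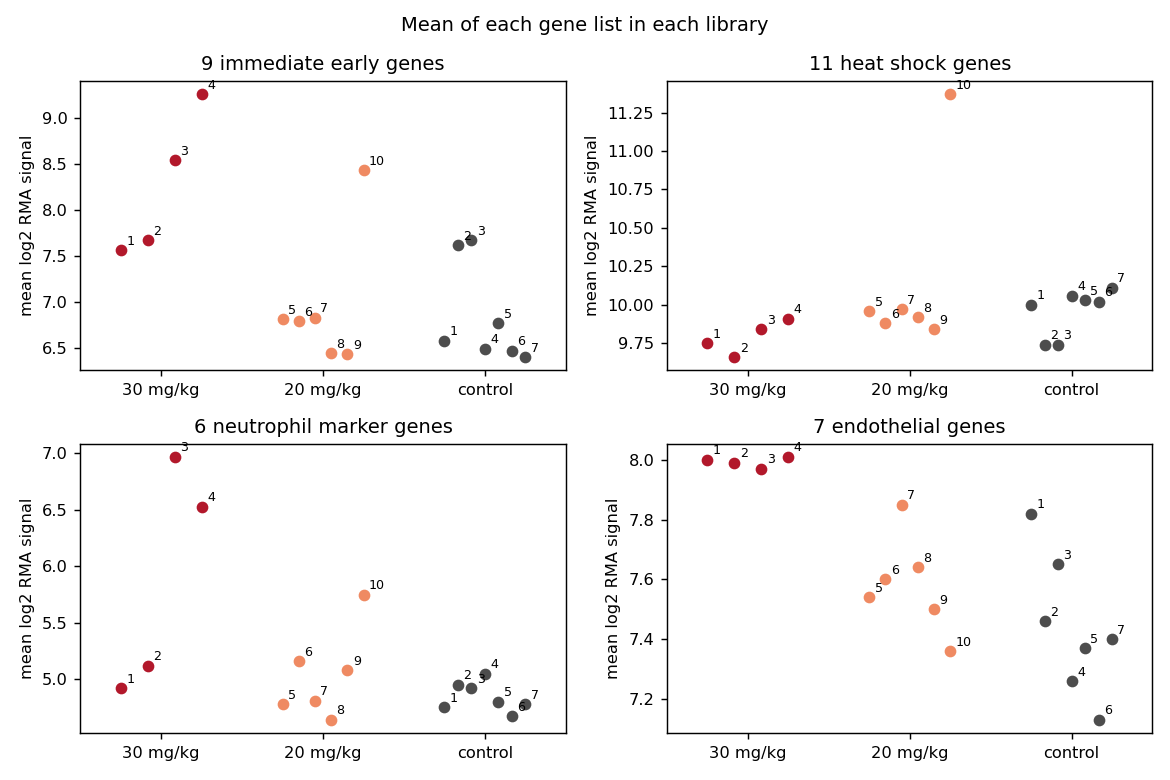
Mean log2 value per library of the 9 members, 11 heat shock genes, 6 neutrophil marker genes and 7 endothelial genes, by group with 30 mg/kg first, 20 mg/kg next and control last. The heat shock mean is high only in replicate 10 at 20 mg/kg (11.37), and the neutrophil mean is highest in replicates 3 and 4 at 30 mg/kg.

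The wider set of immediate early and primary response genes held 46 measured genes, of which 15 were higher at 30 mg/kg, where 3.66% of all genes passed upwards. None of the 46 was lower, and 45 had a positive difference, with a median of 0.57. Among them were Gadd45b, a growth arrest and stress gene (2.01 ± 0.26, limma adjusted p 0.00036), Rgs2, a regulator of G-protein signalling (1.84 ± 0.39, limma adjusted p 0.0087), and the transcription factor gene Cebpd (1.46 ± 0.27, limma adjusted p 0.0039). The salt-inducible kinase gene Sik1 (1.58), the pseudokinase gene Trib1 (1.56), the polo-like kinase gene Plk2 (1.14), the kinase phosphatase gene Dusp5 (1.13) and the antiproliferative gene Btg1 (1.03) passed as well. So did the mRNA decay factor genes Zfp36 (1.16) and Zfp36l2 (0.87), together with Ier3 (0.98), Klf2 (0.98), the clock gene Per1 (0.90), Myc (0.59) and Klf9 (0.47). With the set as a term 4 of the 46 passed (Gadd45b, Rgs2, Cebpd and Btg1), where 1.50% of all genes did upwards. Without replicate 4 at 30 mg/kg 4 passed, where 1.36% did upwards. The count was 7 without replicate 3 at 30 mg/kg, 7 without control replicate 6 and 8 without control replicate 7. In those fits 799, 862 and 866 of the 14506 genes passed in either direction. At 20 mg/kg 1 of the 46 passed, Klf9, a zinc finger gene (0.61 ± 0.13, limma adjusted p 0.03), where 0.655% of all genes passed upwards. The median of the 46 there was 0.26. With the set as a term 0 of the 46 passed at 20 mg/kg, where 0.0207% of all genes did upwards, and their median was 0.39.

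Among 13 other AP-1 and bZIP genes, 3 were higher at 30 mg/kg, namely the small MAF genes Maff (0.91, limma adjusted p 0.024) and Mafk (0.63, limma adjusted p 0.021) and Atf4, the effector of the integrated stress response (0.72, limma adjusted p 0.037). Among 6 EGR genes and corepressors, 2 were higher, Egr2 (0.86, limma adjusted p 0.0096) and the corepressor gene Nab1 (0.50, limma adjusted p 0.028). Of the upstream factors, 0 of 4 genes of serum response factor and its partners passed, with Srf itself at 0.53 (limma adjusted p 0.056). Of 8 genes of the CREB family, its coactivators and phosphodiesterases, 1 passed, Crem (0.92, limma adjusted p 0.046). Of 12 kinase genes, 4 were higher, namely Mapk8 (0.71) and Mapk9 (0.47), which encode JNK kinases, their activator Map2k7 (0.61) and Map3k8 (0.59). Among 11 target and partner genes 2 passed, the metalloproteinase inhibitor gene Timp1 (2.53, limma adjusted p 0.015) and the collagenase gene Mmp13 (0.30, limma adjusted p 0.038). Mmp13 measured 3.41 to 3.66 at 30 mg/kg and 3.10 to 3.31 in controls. Those values lie below the lower quartiles of the arrays in both groups (3.65 to 3.91), so the Mmp13 call is near background. No gene of these 6 lists passed downwards, and the medians were 0.17 to 0.34. The share of all genes that passed upwards in this comparison was 3.66%. The counts in other fits leave out the 4 genes of serum response factor and its partners, so they cover 50 genes of 5 lists. The 12 genes became 7 without replicate 3 at 30 mg/kg and 7 without control replicate 6. In those fits 799 and 862 of the 14506 genes passed in either direction. Without replicate 4 at 30 mg/kg 1 of the 50 passed, where 1.36% of all genes did upwards. With the set as a term 1 passed, Mapk8, where 1.50% did upwards. At 20 mg/kg no gene of these 6 lists passed in limma, where 0.655% of all genes did upwards.

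Set against 20 mg/kg, the 30 mg/kg libraries were higher in 5 of the 46 other immediate early genes, namely Zfp36l1 (0.94), Zfp36l2 (0.79), Gadd45b (1.34), Rgs2 (1.77) and Cebpd (1.12). Egr2 (0.99), Nab1 (0.46), Srf (0.56), the AP-1 gene Fosl1 (0.56), Mapk9 (0.37) and Map3k8 (0.53) were higher too. The AP-1 repressor gene Jdp2 (-0.58) and the chaperone gene Dnaja1 (-0.80) were lower. The limma adjusted p of these 13 genes was 0.0065 to 0.049. In this comparison 3.92% of all genes passed upwards and 12.1% in either direction. With the set as a term 0 of the 14506 genes passed. The count in other fits covers 50 genes of 5 lists, without Srf and the 46 genes, and 5 of the 50 passed upwards here. It became 1 without replicate 4 at 30 mg/kg, where 0.593% of all genes passed upwards. Without replicate 10 at 20 mg/kg it was 8, where 4.26% did.

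The genes outside the member list whose values followed the members' mean most closely over the 17 arrays were Zfp36 (Pearson's r 0.94), the scavenger receptor gene Olr1 (0.92), the glycoprotein hormone gene Stc1 (0.92), the transcriptional repressor gene Bcl6 (0.91) and Gch1 (0.90), the rate-limiting enzyme of tetrahydrobiopterin synthesis. Stc1 averaged 8.41 ± 1.32 at 30 mg/kg, 6.72 ± 0.89 at 20 mg/kg and 6.56 ± 0.37 in controls (SD), and Gch1 9.96 ± 0.53, 9.29 ± 0.50 and 8.98 ± 0.29 in the same groups. For Fos alone the closest were Zfp36l2 (0.91), the transcription factor gene Runx2 (0.89) and the metalloproteinase gene Adamts4 (0.88). These correlations describe arrays that share the same few high libraries.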

How the data were processed

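Total RNA was amplified, labelled with biotin and hybridised to Affymetrix arrays, 1 per library. The deposited log2 values were made by the authors with RMA in Affymetrix Expression Console 1.3.0.187, per the submitters' processing notes, and hold 29214 probe sets. The platform annotation gave 15310 of them 1 symbol and 323 several, and 13581 were not listed. The probe set with the highest mean was kept per symbol, leaving 14506 genes. No further scaling was applied. Groups came from the labels. limma 3.58.1 in R 4.3.3 (lmFit, eBayes) was fitted over all 14506 genes with treatment and sex as terms, in 1 fit of the 3 groups and 1 fit of both doses against control, and p-values were Benjamini-Hochberg adjusted at 0.05. The fits were tested on simulated data. Alternatives were no sex term, trended and robust variances, array weights, median centring, the mean of probe sets, a filter on dim genes, title numbers as a block, the set of title numbers, females alone and each library left out. Named were all members, genes of the fixed lists past the threshold or near it, the 5 genes most correlated with the members' mean and the 3 with Fos. The members and lists were chosen with earlier results of these data known. The number of arrays limits the precision, and the values allow no statement on depth.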

Additional observations from a re-analysis of the deposited data

Results flagged for a closer look

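Within the groups of 4, 6 and 7 libraries, a library was singled out where its gap to the nearest other library took up more of the group's range than Dixon's 95% limit allows. This held for 7 of 30 tests (9 members and their mean in 3 groups), and 6 of the 7 concern replicate 10 at 20 mg/kg. Chance gives about 1 in 20 for a single test. The 30 tests are not independent, since the members vary together and the mean is built from them, so their count cannot be set against that rate. That library had 5.96 for Fos with the next at 5.17, 10.83 for Egr1 with the next at 8.52, 8.28 for Atf3 with the next at 5.14, 8.59 for Nr4a2 with the next at 6.72, and 8.99 for Dusp1 with the next at 7.08. Its mean over the 9 members was 8.43, with the next at 6.83. The remaining case was Atf3 in control replicate 2, at 6.06 with the next control at 5.05.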

How the results depend on the processing

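Without a sex term, 100 genes passed with both doses pooled and 55 at 20 mg/kg. Array weights gave 424 genes with both doses and 577 at 20 mg/kg, and a members' median of 0.27 with both doses. They turned Fos with both doses (-0.09), Jun at 30 mg/kg (-0.01), and Junb (0.02) and Nr4a1 (-0.04) at 20 mg/kg. For 30 against 20 mg/kg they brought Egr1 and Fos past the threshold (limma adjusted p 0.026 and 0.032), where 2366 genes passed in either direction. Same-numbered libraries did not deviate together from their group means (correlations of -0.18 to 0.08 over the 7 shared numbers, and 1 number matched best with itself). These correlations cannot settle whether the libraries were paired by number, because the group means cover different title numbers and the labels do not explain them. With the title number as a replicate block, 2 members passed with both doses, where 231 of the 14506 genes did. At 30 mg/kg against control 0 members and 72 genes passed. At 20 mg/kg 0 genes passed (805 at an unadjusted p under 0.05), and for 30 against 20 mg/kg 0 genes and 0 members did (588 unadjusted, all by limma). The members' median was 0.93 at 20 mg/kg and 0.13 for 30 against 20 mg/kg. Turned were Jun (0.04) and Nr4a3 (0.11) with both doses, Jun (-0.16) and Nr4a3 (-0.22) at 30 mg/kg, Jun (0.41), Junb (0.80) and Nr4a3 (0.72) at 20 mg/kg, and Jun (-0.57), Atf3 (-0.51), Nr4a3 (-0.95) and Dusp1 (-0.03) for 30 against 20 mg/kg. With the set of title numbers as a term, 712 genes and 2 members passed with both doses, 437 genes and 1 member at 30 mg/kg, 52 genes at 20 mg/kg and 0 genes and 0 members for 30 against 20 mg/kg, where the median was 0.45. That term turned Jun at 30 mg/kg (-0.03), Fos (0.09) and Junb (0.59) at 20 mg/kg and Atf3 for 30 against 20 mg/kg (-0.29). Numbers 1 to 4 alone gave 16 genes, 0 members and a median of 0.93 at 30 mg/kg, with Jun at -0.01 and Nr4a3 at -0.03. Without the sex term, chosen after seeing the data, they gave 62 genes, 0 members, a median of 1.45, Jun at -0.02 and Nr4a3 at 0.05. Numbers 5 to 10 alone, all at 20 mg/kg, turned Junb (0.46) relative to 20 mg/kg in all libraries. Fos there (-0.07) had the sign of the 20 mg/kg comparison and the opposite sign to both doses pooled. Without the sex term they gave 55 genes, Fos -0.07 and Junb 0.24. Females alone gave 12 genes, a median of 0.21 and Fos at -0.34 with both doses, 251 genes, 2 members and a median of 1.03 at 30 mg/kg, 2 genes at 20 mg/kg, and 405 genes and 2 members for 30 against 20 mg/kg. At 20 mg/kg their median was -0.21, with Egr1 at -0.39, Atf3 at -0.08, Nr4a1 at -0.21 and Nr4a2 at -0.03. Leaving out each library in turn gave 46 to 249 genes with both doses, 456 to 1563 at 30 mg/kg, 22 to 470 at 20 mg/kg and 321 to 2172 for 30 against 20 mg/kg. Members past the threshold then numbered 1 to 5 at 30 mg/kg and 0 to 7 for 30 against 20 mg/kg, and the members' median was 0.58 to 1, 1.20 to 2.01, -0.18 to 0.35 and 0.83 to 1.60 in those 4 comparisons. Single members that turned in such fits spanned -0.06 to 0.77 (Egr1), -0.24 to 0.09 (Junb) and -0.18 to 0.35 (Nr4a1) at 20 mg/kg, -0.04 to 0.09 (Jun) at 30 mg/kg, and -0.07 to 0.31 (Fos) and -0.33 to 0.09 (Nr4a3) with both doses. Dusp1 for 30 against 20 mg/kg kept its call in 6 of the 17 such fits. Trended variances moved no call of a member. The mean of probe sets moved none either, but each measured member has 1 probe set, so its values were the same there. Median centring brought 2 more members past the threshold for 30 against 20 mg/kg, where 1896 genes passed, against 1752 in the main fit. The cause of these shifts was not tested, beyond the smaller number of libraries where some were left out. Fos and Atf3 lay near or below the array median in many libraries, which limits what their low values can show.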
